A study of Sus scrofa with 13 samples.

Results

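A set of 35 Ensembl genes of the pig had high RNA levels in the longissimus dorsi, the skeletal muscle along the back, and low levels in 8 other organs. They were chosen from 21607 Ensembl genes by their RPKM, the number of reads set against gene length and library total. A gene was taken when its RPKM in muscle at day 240 was at least 10 and at least 10 times its RPKM in each of 8 organs of the same age (adipose tissue, heart, kidney, liver, lung, ovary, spleen and testis), and when the highest of its 3 muscle stages was under 4 times the lowest. Of the 35 genes, 29 carried a symbol and 6 were known by identifier only. The values of muscle and organs chose the genes, so they are given as a description, and only the 2 RNA mixtures were left out of the choice.

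Skeletal muscle contracts when myosin of the thick filament pulls on actin of the thin filament, within units bounded by Z-discs. Calcium released from the sarcoplasmic reticulum after depolarisation of the membrane binds troponin C and frees actin for myosin, and a calcium pump then clears it. Many of these proteins come in separate fast, slow, embryonic and cardiac forms that are encoded by different genes.

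The study sequenced total RNA of 13 pig libraries. Single tissues came from Guizhou mini-pigs, with the longissimus dorsi sampled at birth (day 0), day 30 and day 240 and the 8 organs at day 240 only. Besides these, 2 libraries pooled equal amounts of RNA from multiple breeds and time points, 1 from multiple tissues (tissue mixture) and 1 from longissimus dorsi (muscle mixture), and the breeds, ages and tissues in them are not named in the labels. The labels give neither the sex nor the number of animals behind a library, and each tissue, stage and mixture was 1 library, so differences could not be set against replicates and no test between conditions was possible. Ranges in parentheses are exact 95% Poisson intervals of the reads and cover counting error only. In such bulk RNA, fewer cells of a type and less RNA per cell cannot be told apart.

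The total behind RPKM lay between 21685316 reads in ovary and 38581416 in testis for the single tissues, with 63015726 in the muscle mixture and 108337358 in the tissue mixture. The fewest reads counted on genes and lncRNAs were 3620348, in muscle of day 30, and the most were 32507136, in the tissue mixture. For each of the 8 organs, the summed RPKM of its own marker genes was highest in that organ, with only 5.01 RPKM over 2 markers in ovary. Markers of liver also summed to 362 RPKM in the lung library. Skeletal muscle was checked with ACTA1 and MYL11, the 2 of 5 markers found by symbol, of which MYL11 is a member, and they summed to between 3166 and 4355 RPKM in the 3 muscle stages, 539 in heart and at most 3.45 in the other organs.

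The 35 genes held a large share of the RNA counted in muscle. Their reads made up 17.6% of counted reads at day 0, 25.6% at day 30 and 28.1% at day 240, against 0.228% in heart and between 0.0129% and 0.0491% in the other organs. The share was 13.1% in the muscle mixture and 2.44% in the tissue mixture. TNNC2, MYL1 and MYH8 alone took between 38.3% and 44.2% of the members' reads in the 3 muscle stages. The median RPKM of the 35 genes was 84.8 at day 0, 80.7 at day 30 and 153 at day 240, while it was at most 0.326 in any organ.

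**Figure D1:**
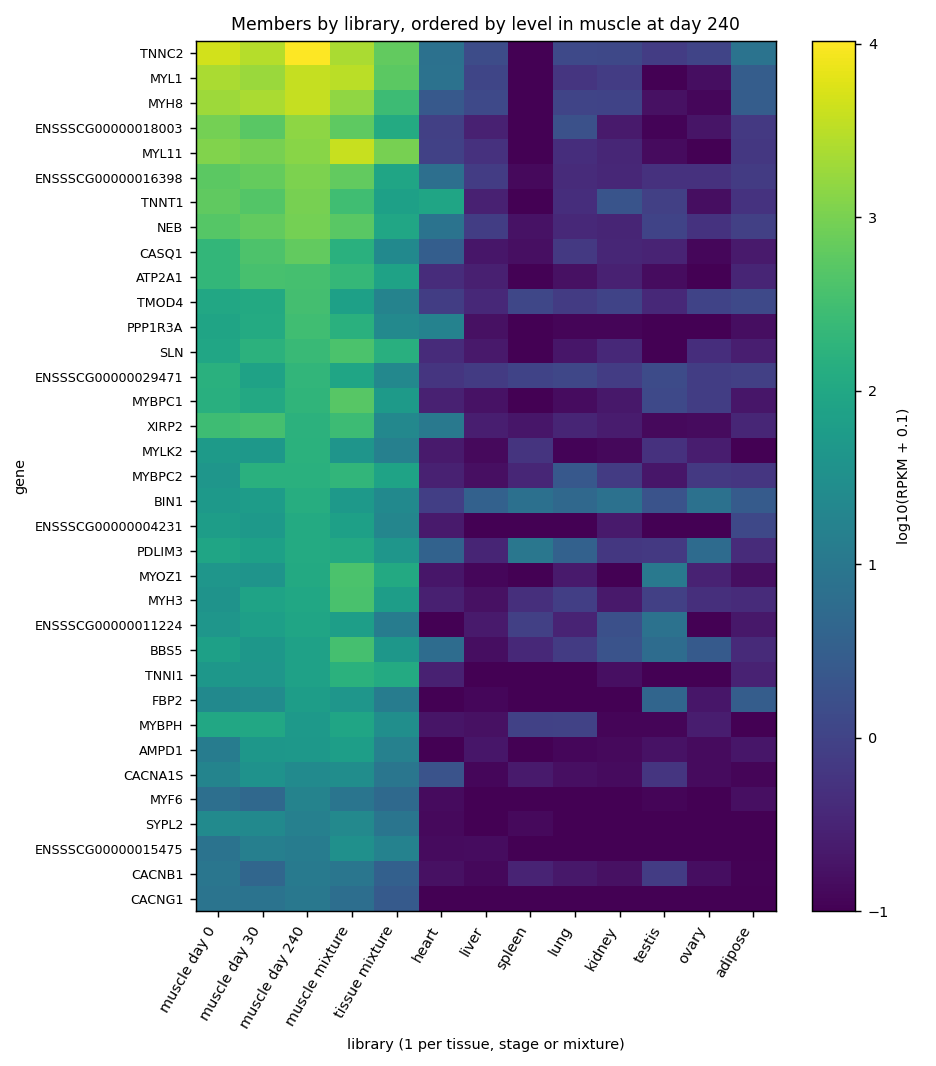
Level of each of the 35 genes (rows, ordered by RPKM in muscle at day 240) in each of the 13 libraries (columns), with colour giving log10(RPKM + 0.1). In each row the 3 muscle stages and the muscle mixture are brighter than every organ. Their columns also hold low cells, such as CACNB1 at day 30 with 4.45 RPKM, and the tissue mixture goes down to 2.51 for CACNG1. The brightest single cell among the organs is TNNT1 in heart at 89.2 RPKM.

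Genes of the thin filament included the highest level of all. TNNC2 (ENSSSCG00000007424), troponin C of fast fibres and the calcium sensor of the filament, had 4717 RPKM at day 0, 2877 at day 30 and 10378 (10337 to 10419) at day 240, and between 0 in spleen and 8.11 in adipose tissue among the organs. NEB, nebulin, which runs along the thin filament, had 504, 640.1 and 911 RPKM at the 3 stages and 8.03 in heart, its highest organ. All muscle stages of both genes lay far above every organ.

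Members of the slow troponin complex were TNNT1, slow troponin T, which ties the complex to tropomyosin, and TNNI1, slow troponin I, its inhibitory subunit. TNNT1 had 629.7, 472 and 987 RPKM in muscle at day 0, 30 and 240, and 89.2 in heart against at most 1.92 in the other organs. TNNI1 had 45.1, 42.8 and 72.7 RPKM, with at most 0.206 in any organ and no read in 5 of the 8. Heart thus stood between muscle and the other organs for TNNT1 and at the level of the other organs for TNNI1. TMOD4, tropomodulin of skeletal muscle, which caps the slow-growing end of the thin filament, had 103, 113 and 325 RPKM.

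The thick filament gave 8 members of the list for thick filament and M-band. MYL1, an essential light chain of fast fibres, had 2402, 1844 and 3798 RPKM at day 0, 30 and 240, and at most 7.81, in heart, among the organs. MYL11 (ENSSSCG00000007799), the fast regulatory light chain, had 1154, 962 and 1358 RPKM. Its ratio of muscle at day 240 to its highest organ was the largest among members with any organ read, at 1607 (1051 to 2597). The ratio rested on 21 reads in heart, and its interval holds the ratios of MYH8, TNNC2 and ATP2A1. The highest stage was 2.06 times the lowest for MYL1 and 1.41 times for MYL11. A stage range smaller than the distance from the organs was built into the choice.

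Among the heavy chains, the motor subunits of myosin, the gene with the symbol MYH8 (ENSSSCG00000018005) had 1888, 2442 and 3695 RPKM and the gene with the symbol MYH3 (ENSSSCG00000018007) had 37.3, 80.7 and 96.3. MYH8 is known as the perinatal form and MYH3 as the embryonic form, and both were highest at day 240 as deposited and at day 30 when libraries were scaled to an equal total RPKM. Heavy chain genes are similar in sequence, so reads of 1 gene may have been lost or counted on another, which was not tested. The RefSeq gene table of assembly Sscrofa11.1 lists MYH1, MYH2 and MYH4 and neither MYH3 nor MYH8, so the isoform behind these symbols is uncertain.

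The myosin-binding proteins C and H, which bind the thick filament at regular distances, had different patterns over the stages. MYBPC1, the slow form, had 143, 104 and 191 RPKM at day 0, 30 and 240. MYBPC2, the fast form, had 43.6 at day 0 and 153 and 153 at the later stages. MYBPH had 99.6, 99.7 and 51.2 RPKM, the lowest level at day 240. The RefSeq table places MYBPH over ADORA1, and the strand setting of the counting was not stated, so reads of the overlap cannot be told apart. MYLK2, the skeletal kinase of the regulatory light chain, had 53.7, 47.1 and 157 RPKM and stayed at or below 0.467 in every organ.

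The Z-disc list held 3 members, and 2 of them had their highest organ outside the heart. MYOZ1, myozenin 1, which binds calcineurin and alpha-actinin, had 42.9, 39.1 and 112 RPKM in muscle, 10.7 in testis and at most 0.197 elsewhere among the organs. PDLIM3, a LIM protein that binds alpha-actinin, had 89.0, 70.8 and 116 RPKM in muscle and 9.59 in spleen, 5.63 in ovary, 3.66 in heart and 3.55 in lung. XIRP2 (ENSSSCG00000015917), an actin-binding Xin repeat protein, had 288, 345 and 165 RPKM in muscle and 10.6 in heart, with at most 0.243 in the other organs. The organs next to muscle were thus testis, spleen and heart for the 3 genes.

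Excitation-contraction coupling, the step from the electrical signal to calcium release, and calcium handling gave 7 members. Of the L-type calcium channel that senses the voltage, 3 subunits were members. CACNA1S, its pore subunit, had 17.9, 35.6 and 25.2 RPKM at day 0, 30 and 240, with 1.83 in heart. CACNB1, its beta subunit, had 9.30, 4.45 and 10.9 RPKM, with 0.694 in testis. CACNG1, its gamma subunit, had 8.49, 7.99 and 10.1 RPKM and no read in any of the 8 organs, which places muscle at day 240 at least 83.3-fold higher than the level that 3 reads give in the organ of lowest depth.

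In the sarcoplasmic reticulum, CASQ1, the calcium-binding calsequestrin of fast fibres, had 209.8, 420.1 and 642 RPKM, and 3.03 in heart. ATP2A1, the fast calcium pump SERCA1, had 213, 352 and 351 RPKM, and SLN, sarcolipin, a small inhibitor of that pump, had 91.1, 165 and 253. ATP2A1 and SLN were at or below 0.351 RPKM in every organ, heart included. In the RefSeq table, ATP2A1 overlaps RABEP2. SYPL2, mitsugumin 29 of the triad membrane, was the only member highest at day 0 in RPKM as deposited, with 25.4, 24.0 and 15.3 RPKM, and had 1 read in heart, 1 in spleen and none in the other 6 organs. BIN1, which shapes the transverse tubules and was on no list, had 50.1, 60.4 and 135 RPKM in muscle and between 0.757, in heart, and 7.35, in ovary, among the organs.

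Enzymes and regulators of energy use were fewer. PPP1R3A, the subunit that targets protein phosphatase 1 to glycogen, had 84.8, 116 and 295 RPKM in muscle and 16.7 in heart, against at most 0.068 in the other organs. FBP2, the muscle fructose-bisphosphatase, had 23.7, 26.4 and 61.0 RPKM, with 4.14 in testis and 2.97 in adipose tissue. AMPD1, the muscle AMP deaminase, had 12.8 RPKM at day 0 and 44.4 and 46.6 at the later stages, and at most 0.102 in any organ. These 3 genes were all lowest at day 0.

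MYF6, a myogenic transcription factor also called MRF4, was the only regulator among the members, with 6.56, 4.94 and 17.7 RPKM and at most 3 reads in any organ. BBS5 (ENSSSCG00000015931), known as a part of the ciliary BBSome, had 72.1, 44.3 and 73.1 RPKM in muscle, 5.78 in heart and 5.74 in testis. In the RefSeq table it lies next to KLHL41, a gene of muscle sarcomeres.

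The 6 genes without a symbol held both high and low levels. ENSSSCG00000018003 had 949.6, 543 and 1444 RPKM at day 0, 30 and 240 and at most 1.64, in lung, among the organs. ENSSSCG00000016398 had 568, 691 and 1074 RPKM and 6.62 in heart. The first identifier is close to those of MYH8 (ENSSSCG00000018005) and MYH3 (ENSSSCG00000018007), and the second follows that of NEB (ENSSSCG00000016397). Whether they are genes separate from these was not tested. At day 240, the other 4 lay between 12.5 and 200.5 RPKM, and ENSSSCG00000015475 had 1 read each in heart and liver and none in the other organs. The lengths at which RPKM gave whole reads ran from 210 to 12196 nt over all members, with a median of 1730 nt against 1823 nt over 17703 Ensembl genes.

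Across organs, heart was highest for 12 members, testis and adipose tissue for 7 each, lung for 3, spleen and ovary for 2 each and liver for 1. For 18 members, 4 of them highest in heart, the counting interval of the highest organ overlapped that of at least 1 other organ, so their highest organ was not set by these reads. Heart was also the organ with the most members at 1 RPKM or more, 12 of 35, followed by testis and adipose tissue with 7 each, while 17 members had no read in spleen. In all, 13 members stayed under 1 RPKM in each organ. No share over all Ensembl genes is given beside these counts. The organs entered the choice, and their summed RPKM ran from 61672 in spleen to 214285 in ovary, so nothing is read from the counts. Muscle at day 240 was at least 100 times the highest organ for 21 members. Next to MYL11, the largest ratios were 1288 for MYH8, 1280.1 for TNNC2, 1075 for ATP2A1 and 878 for ENSSSCG00000018003.

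**Figure D2:**
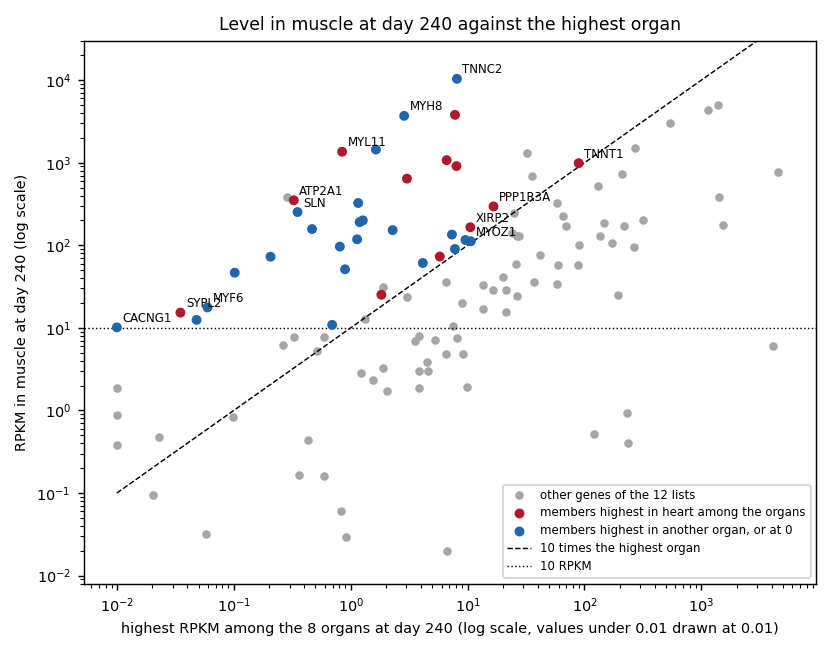
RPKM of each of the 35 genes in muscle at day 240 (vertical axis, log scale) against its RPKM in the highest of the 8 organs (horizontal axis, log scale), with grey points for other genes of the 12 lists, a dashed line at the 10-fold limit and a dotted line at 10 RPKM. CACNG1, at 0 in each organ, is drawn at 0.01, the 5 members nearest the dashed line are MYOZ1, TNNT1, ENSSSCG00000011224, PDLIM3 and BBS5, and MYL11, MYH8 and TNNC2 lie farthest above it.

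Several genes lay close to the limits of the choice, and the reads do not settle on which side some of them fall. The counting interval of the organ ratio reached below 10 for MYOZ1 (9.64 to 11.5) and ENSSSCG00000011224 (9.09 to 14.9). That of the RPKM in muscle at day 240 reached below 10 for CACNG1 (9.13 to 11.2). Just inside the 10-fold limit were MYOZ1 at 10.5, TNNT1 at 11.1, ENSSSCG00000011224 at 11.6, PDLIM3 at 12.1 and BBS5 at 12.6, and among those just outside were MYOT at 9.79, PHKG1 at 9.61, ANO5 at 9.16 and TMEM38A at 7.90. CACNG1 and CACNB1, followed by ENSSSCG00000015475, SYPL2 and MYF6, were the lowest members, and KLHL40 at 7.68 RPKM was the nearest gene below 10 that met the other limits. Of the stage range, AMPD1 at 3.63, TNNC2 at 3.61, MYF6 at 3.58, MYBPC2 at 3.51 and PPP1R3A at 3.48 were the nearest below 4, and CA3 at 4.60 was the nearest above. At the other muscle stages, 27 members at day 0 and 26 at day 30 were at least 10 times their highest organ. The limits at day 240 and on the stage range largely set these counts. They made this certain for the 21 members at least 100 times their highest organ at day 240, so nothing is read from it.

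The members were a part of the muscle genes that could be looked up by name. Of 107 genes matched to 11 muscle lists, 71 had at least 10 RPKM in muscle at day 240, and 26 of these were members, 41 were under 10-fold over an organ and 4 were past the stage range. Heart was the highest organ for 32 of the 41. Members made up 2 of 6 genes of the fast thin filament, 2 of 3 of the slow thin filament, 8 of 14 of the thick filament and M-band, 3 of 11 of the Z-disc, 7 of 17 of coupling and calcium, 3 of 15 of glycogen and glycolysis and 1 of 13 myogenic regulators. No member came from the 4 genes of the neuromuscular junction, none of which reached 10 RPKM, nor from the 4 of creatine and energy buffering, the 14 of protein turnover or the 6 of the membrane and dystrophin complex.

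Some muscle genes outside the set, named here after their values were seen, were high in heart too. ACTA1, skeletal actin, had 2998 RPKM in muscle at day 240 and 538 in heart, and TRDN, triadin, had 526 and 130.3. TNNC1, the troponin C of slow fibres and heart, was higher in heart, at 1408 RPKM, than in muscle, at 383. Of 8 genes listed as cardiac isoforms, only the gene with the symbol MYH6 passed 10 RPKM in muscle at day 240, with 768 there and 4521 in heart. MYH7, a heavy chain on the thick filament list, was not found by symbol. Whether the MYH6 value holds reads of another heavy chain gene was not tested.

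Between stages, most members were highest at day 240 in RPKM as deposited, with 28 highest at day 240, 6 at day 30 and 1 at day 0. This depended on the scaling, since with libraries scaled to an equal total RPKM only 18 members were higher at day 240 than at day 30. From day 0 to day 240, 14 members were at least 2-fold higher and 0 were as much lower, beside 10.4% and 36.8% of 12594 Ensembl genes. With libraries scaled to an equal median ratio over features (the same median ratio), 29 were higher and 0 lower, beside 22.6% and 19.9% of 13148 Ensembl genes. Nothing is read from these shares, or from the counts of members by stage, since the stages entered the choice. No share over all Ensembl genes is given for the counts by highest stage or by direction alone. Higher levels at day 240 than at day 0 were seen for 32 members, and for 31 and 33 when libraries were scaled to an equal total RPKM (the same total) or to an equal median ratio. The median fold was 1.81, and the 2 scalings gave 1.71 and 3.06. The median log2 difference of all Ensembl genes compared was -0.65 as deposited, -0.71 with the same total and 0.06 with the same median ratio.

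The 3 largest ratios of day 240 to day 0 were those of AMPD1, 3.63-fold (3.39 to 3.89), MYBPC2, 3.50-fold (3.40 to 3.61), and PPP1R3A, 3.48-fold (3.40 to 3.56). For AMPD1 and MYBPC2 the low stage was day 0 alone, with day 30 and day 240 close together as deposited. The only members lower at day 240 than at day 0 as deposited were MYBPH, at 0.514 of its day 0 level (0.49 to 0.539), XIRP2 at 0.575 (0.57 to 0.581) and SYPL2 at 0.601 (0.531 to 0.681), and with the same median ratio SYPL2 was no longer lower. The step at day 30 depended on the scaling. As deposited, 18 members were higher at day 30 than at day 0, and 28 were higher at day 240 than at day 30. With the same total these were 30 and 18, and with the same median ratio 33 and 27. In the same order of scalings, the median log2 difference of all Ensembl genes compared was -0.75, -0.20 and 0.09 for day 30 over day 0. For day 240 over day 30 it was 0.16, -0.48 and 0.02, and nothing is read from the counts of members. Spearman's rho over the 35 genes was between 0.929 and 0.941 for pairs of stages, which is a description over genes of the same libraries. The choice admitted only genes whose stages span under 4-fold, so a similar order was built in and nothing is read from it.

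**Figure D3:**
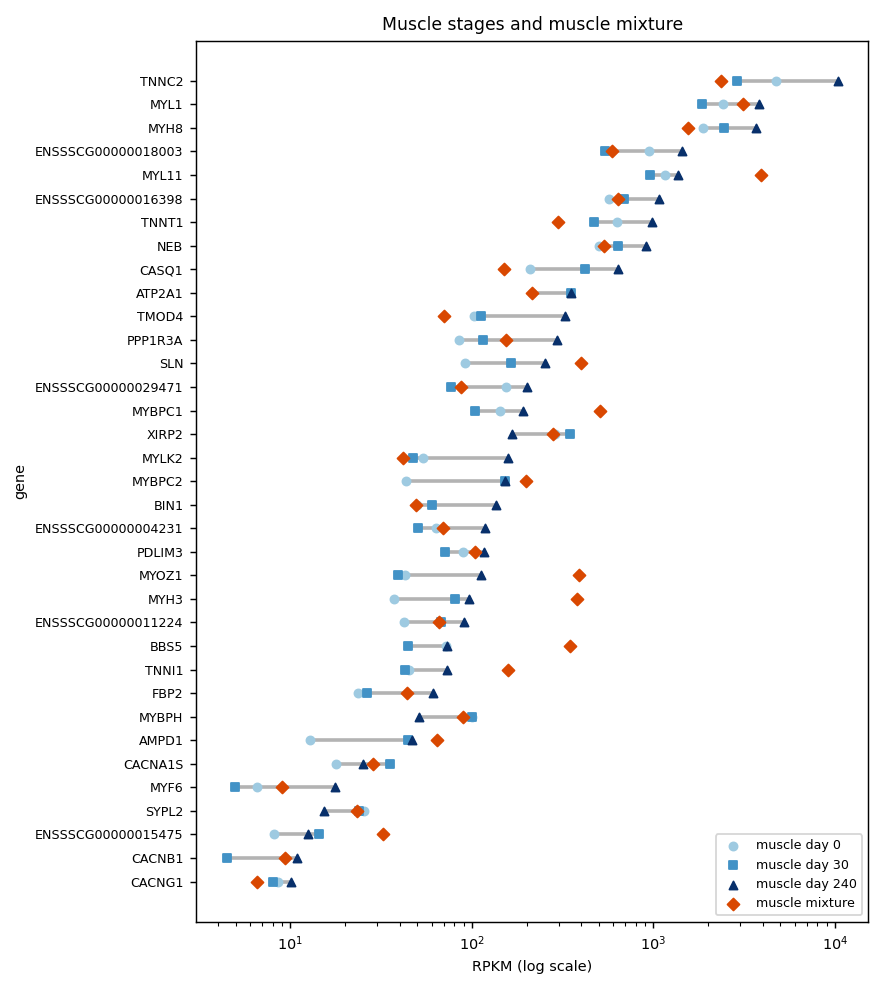
RPKM (log scale) of each of the 35 genes at the 3 muscle stages and in the muscle mixture. By the choice of genes the stages of each span less than 4-fold, and BBS5, MYH3 and MYOZ1 lie 4.73, 3.95 and 3.49 times above their highest stage in the mixture.

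The 2 mixtures were the libraries that the choice of genes did not use. In the muscle mixture, 32 of 35 members were at least 2-fold higher than in the tissue mixture. This stood beside 6.14% of 17457 Ensembl genes compared and 32.9% of the 921 with at least 10 RPKM in muscle at day 240. No member was lower in the muscle mixture. The median difference of the members was 1.89 on the log2(RPKM + 0.1) scale, and that of all Ensembl genes compared was -0.82, a gap of 2.71. The tissue mixture itself held muscle RNA, with ACTA1 and MYL11 summing to 2353 RPKM there and 6974 in the muscle mixture.

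XIRP2 had 279.6 RPKM in the muscle mixture and 22.2 in the tissue mixture, a ratio of 12.6 (12.5 to 12.8) that was the highest of all members. MYBPC1 followed with 505 and 53.9 RPKM, a ratio of 9.37 (9.23 to 9.51), and BBS5 with 346 and 44.4, a ratio of 7.79 (7.61 to 7.98). All 3 were far above the median ratio of 3.72.

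The smallest ratio belonged to TNNI1, with 157 RPKM in the muscle mixture, 116 in the tissue mixture and a ratio of 1.36 (1.32 to 1.40). Its partner in the slow troponin complex, TNNT1, had 297 and 71.9 RPKM and a ratio of 4.13 (4.01 to 4.25). MYF6 had 8.97 and 5.09 RPKM, a ratio of 1.76 (1.59 to 1.95), and ENSSSCG00000015475 had 32.6 and 16.7, a ratio of 1.95 (1.80 to 2.11). The intervals of these ratios cover counting error only, and the interval of ENSSSCG00000015475 reaches past 2.

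**Figure D4:**
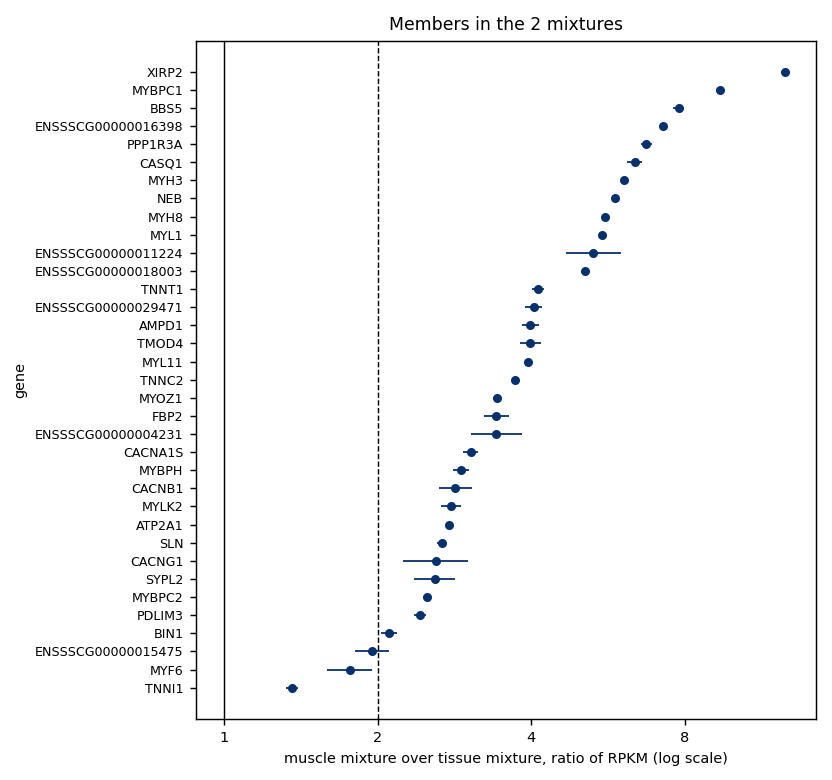
Ratio of RPKM in the muscle mixture to RPKM in the tissue mixture (horizontal axis, log scale) for each of the 35 genes, with exact 95% counting intervals as bars and a dashed line at 2. Points run from 1.36 for TNNI1 to 12.6 for XIRP2, and 3 genes lie below the dashed line.

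Against the 3 stages of Guizhou mini-pigs, the muscle mixture lay within the range of a member's stages for 17 of 35, above it for 10 and below it for 8. Of 15162 Ensembl genes, 22.5% lay within, 75.2% above and 2.25% below. With the same total, 12 members were within, 8 above and 15 below, beside 30.3%, 64.3% and 5.4% of these Ensembl genes. With the same median ratio, 7 were within, 3 above and 25 below, beside 43.6%, 35.2% and 21.3%. A place above the range was common over these Ensembl genes and less so among the members. The stages that set this range also entered the choice of members, so nothing is read from the difference, and no test was made. The genes above the range under each of the 3 scalings were BBS5, MYH3 and MYOZ1. MYH3 had 380.2 RPKM in the mixture, 3.95 times its highest stage, MYOZ1 had 390.2, 3.49 times, and BBS5 had 346, 4.73 times. The 8 genes below the range as deposited were also below it under both scalings. They were TNNC2, MYH8, TNNT1, CASQ1, TMOD4, MYLK2, BIN1 and CACNG1, with 2369 RPKM for TNNC2 and 149.8 for CASQ1 in the mixture.

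The order of the highest members also differed between the mixture and the stages. In RPKM, TNNC2 was above MYL11 at each stage, while MYL11 was the highest member of the muscle mixture at 3905 RPKM (3886 to 3923). Over the 35 genes, Spearman's rho was 0.811 between muscle at day 240 and the muscle mixture and 0.935 between the 2 mixtures, with no test.

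Markers of other cells also differed between the mixture and the stages. The 3 of 4 fibroblast markers found summed to 1222 RPKM in the muscle mixture and to 98.8, 96.3 and 38.0 at day 0, 30 and 240, and the 2 of 3 blood markers found summed to 115 against 20.5, 8.25 and 9.98. MYF5, the 1 of 2 markers of satellite cells found, had 4.41 RPKM in the mixture and 1.12, 0.0860 and 0.0322 at the 3 stages. The adipose markers found, 2 of 5, stayed at or below 0.582 RPKM in all 4 libraries. In the tissue mixture, the blood markers summed to 3673 RPKM, the liver markers to 1437 and the fibroblast markers to 559. The part of these cells in the mixture values was not tested.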

How the data were processed

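Total RNA of 13 pig libraries was analysed, 1 per tissue, stage or mixture. The authors mapped reads with TopHat 1.3.2, per the submitters' processing notes, assembled transcripts with Cufflinks, counted reads with htseq-count and deposited RPKM for 32420 features. The genome build of these libraries and the strand setting are not given in the sources used here.

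RPKM values were whole multiples of what 1 read is worth, which gave the library totals, lengths and reads for all 29462 features above 0, after a test on simulated data. Symbols came from a gene name table that named 11654 Ensembl genes, and neighbours from RefSeq (Sscrofa11.1), which held 26 of the 29 symbols. The members, gene lists and limits were chosen with earlier results of these data known. Genes named were the 10 highest in muscle at day 240, the 5 with the largest organ ratio, those nearest each limit, the 3 with the largest stage change each way, the 3 highest and lowest between mixtures, and the members on each list. One gene near a limit is not reported here. Differences used log2(RPKM + 0.1) over Ensembl genes with at least 0.1 RPKM in 1 of the libraries compared, without the lncRNAs. Intervals are exact at 95% (Poisson), and the floor was 3 reads. Alternatives were other limits, pseudocounts, filters and 2 scalings of libraries (same total RPKM, or same median ratio to the geometric mean over features above 0 in each library). Python 3.11.15, numpy 2.4.6, pandas 2.3.3, scipy 1.17.1 and matplotlib 3.10.9 were used.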

Additional observations from a re-analysis of the deposited data

How the results depend on the processing

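The number of members, 35, was 14 with a stage range under 2 and 87 with heart not among the organs, an alternative chosen after seeing the data. With the same total it was 31, of which 29 were among the 35, and with the same median ratio 38, of which 23 were. The median log2 difference between mixtures, 1.89, was 2.38 with the same median ratio, and the number of members whose muscle mixture lay within the range of stages, 17, was 7. Other limits, pseudocounts and filters left the remaining counts within 1.5 times of their value. The search for promoter motifs was not run, since no promoter sequence was used here. The genes with few reads in organs, such as SYPL2 with 1 read in its highest organ, have organ ratios known only within wide limits (437.6, interval 78.1 to 17326). Differences between animals were not measured with 1 library per tissue.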

Other observations

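Genes that met both other limits but not the stage range, 14 in all, held several enzymes of glycogen and glucose use. PYGM, muscle glycogen phosphorylase, had 139 RPKM at day 0, 435 at day 30 and 689 at day 240. PHKA1, a subunit of its activating kinase, had 5.92, 19.9 and 31.2 RPKM, and LDHA, lactate dehydrogenase A, had 214, 489.5 and 1301. CA3, the muscle carbonic anhydrase, had 130.3, 246 and 599 RPKM. All 4 were lowest at day 0 and highest at day 240 in RPKM as deposited. Their muscle mixture level then lay between these stages, at 381 RPKM for PYGM, 19.7 for PHKA1, 470.1 for LDHA and 349 for CA3. The gene with the symbol MYH13, also a heavy chain gene of uncertain isoform, had 61.1, 302 and 385 RPKM, and ENSSSCG00000018006 had 1030.0, 6920 and 5165. ENSSSCG00000014253 was lowest at day 30, with 27.3, 3.49 and 44.6 RPKM. These genes were picked for a range between stages, so their differences are a description without a test.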
